A study of Mus musculus with 18 samples.

Results

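The constitutive proteasome genes were examined in the livers of female mice exposed to 1 of 4 chemicals. The set was chosen by name: every mouse gene whose annotation symbol is Psma, Psmb, Psmc, Psmd, Psme, Psmf or Psmg followed by a number, without the immunoproteasome genes Psmb8, Psmb9 and Psmb10. The rule gave 45 genes, of which 44 had a probe set naming only that gene, and 42 of the 12169 genes tested in all were members. Psma8, the testis form of an alpha subunit, and Psmb11, the thymus form of a beta subunit, failed the filter on dim probe sets, with log2 signals of 3.24 to 3.96 and 3.04 to 3.74 over the 18 arrays. Psme2, a subunit of the PA28 activator, was measured only by a probe set that also names Psme2b, and it was not tested. A probe set had to exceed the median of its array on at least 3 of the 18 arrays to be kept, and the brightest one stood for each gene.

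The 26S proteasome degrades proteins that carry ubiquitin chains. Its 20S core is a barrel of outer alpha rings, which gate the entrance, and inner beta rings, in which Psmb5, Psmb6 and Psmb7 carry the catalytic sites. The 19S cap recognises ubiquitinated proteins, removes the chains and unfolds the substrate with a ring of ATPases encoded by Psmc genes, on a lid and base built mainly from Psmd products. Other members open the core without ubiquitin (Psme genes), inhibit it in vitro (Psmf1) or help to assemble it (Psmg genes, Psmd5, Psmd9 and Psmd10). When proteasome capacity falls short, mammalian cells raise most subunit genes together through the transcription factor NRF1, the product of Nfe2l1. NRF2, the product of Nfe2l2 and a transcription factor activated in response to electrophiles, has also been linked to the induction of some subunits in mouse liver.

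Liver RNA of 18 female B6C3F1 mice, a hybrid strain of rodent cancer bioassays, was hybridised to Affymetrix whole-genome arrays, 1 array per animal and 3 animals per group. Exposure began at 5 weeks of age and lasted 13 weeks. The first group received 1,5-naphthalenediamine (NDA) at 2000 ppm in feed. A further group received 2,3-benzofuran (BF) at 240 mg/kg by gavage in corn oil at 5 ml/kg on 5 days per week. The design text classes both chemicals as positive liver carcinogens. N-(1-naphthyl)ethylenediamine (NED), given as its dihydrochloride at 2000 ppm in feed, and pentachloronitrobenzene (PCNB), a fungicide given at 8187 ppm in feed, are classed as negative. Feed was given on 7 days per week. Untreated feed was the control for NDA, NED and PCNB, and corn oil by gavage was the control for BF, so that the 3 feed chemicals share their control animals. All mice were female and 18 weeks old at the end. The arrays measured whole liver, in which fewer cells of a type and less RNA per cell cannot be told apart.

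Some properties of the arrays moved with the groups. The 75th percentile of the log2 signal was 6.32 to 6.41 on the exposed arrays and 6.10 to 6.26 on the control arrays, whereas medians were 4.25 to 4.32 on the exposed and 4.31 to 4.35 on the control arrays. Over all tested genes the median log2 change was above 0 for every chemical, at 0.18 for NDA, 0.11 for BF, 0.15 for NED and 0.15 for PCNB. Proteasome genes are bright, so each change is given on the deposited scale and, as a level-centred change, relative to the other genes in the same 1-unit bin of mean log2 signal. The 18S ribosomal RNA signal on 6 exposed arrays was above that of every control array, where it was 6.11 to 6.67. The 5 highest, at 7.93 to 11.56, were NED animals 12 and 14, BF animals 6 and 10, and NDA animal 4, and are called the arrays of high 18S signal here. NED animal 15, at 6.965, was also above the controls, so that without all 6 no NED array would be left. RNA integrity numbers were 7.7 to 8.1 for NED, against 8.8 to 9.1 for feed control, and the beta-actin 3' minus 5' signal was 1.45 to 1.85 for NED, against 0.90 to 0.99 for feed control. It was also raised on NDA animal 4, at 1.75, and on BF animal 10, at 1.29, against up to 1.18 on the control arrays. Precision is limited by the number of arrays, 3 in each group.

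Sequence upstream of the start was read for the members that the results turn on, because NRF1 and NRF2 bind antioxidant response elements and CCAAT boxes are common in proteasome promoters. The 160 bases before a RefSeq start of Psmb5, Psmb6, Psmd5 and Psmd14 are shown 5′ to 3′ on the strand of the gene, with RefSeq's sequence on build GRCm38.p6. That start is the outermost one of the gene for Psmb5 and Psmd14, and lies inside it by 33 bases for Psmb6 and by 3 bases for Psmd5, so that the marked match of Psmb6 lies after the outermost start. Capitals mark TGACNNNGC, the core of the antioxidant response element, its variant TGAGNNNGC, or CCAAT, on either strand.
Psmb5 (chr14:54617996-54618155, minus strand): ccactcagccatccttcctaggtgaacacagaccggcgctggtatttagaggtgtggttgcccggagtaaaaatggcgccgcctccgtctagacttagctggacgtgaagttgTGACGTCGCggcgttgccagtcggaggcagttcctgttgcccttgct
Psmb6 (chr11:70525197-70525356, plus strand): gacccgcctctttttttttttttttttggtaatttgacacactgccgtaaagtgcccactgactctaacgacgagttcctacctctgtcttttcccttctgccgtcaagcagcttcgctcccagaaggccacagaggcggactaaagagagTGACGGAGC
Psmd5 (chr2:34870963-34871122, minus strand): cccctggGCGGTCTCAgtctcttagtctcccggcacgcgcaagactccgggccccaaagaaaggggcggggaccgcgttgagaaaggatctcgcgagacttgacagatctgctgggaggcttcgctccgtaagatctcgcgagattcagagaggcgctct
Psmd14 (chr2:61711534-61711693, plus strand): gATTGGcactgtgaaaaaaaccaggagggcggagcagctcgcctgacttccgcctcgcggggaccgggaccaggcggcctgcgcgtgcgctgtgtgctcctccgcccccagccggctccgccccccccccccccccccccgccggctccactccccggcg
Psmb5 and Psmb6 each hold a match to TGACNNNGC, Psmd5 holds the variant on the opposite strand, and Psmd14 holds a CCAAT box on the opposite strand. Of the 42 members, 35 matched a promoter sequence, and the motifs were counted in these from 250 bases before to 50 bases after the start. TGACNNNGC was found for 6 of the 35 members (17.1%), against 14.0% of all 27025 genes with a sequence. TGAGNNNGC was found for 12 members (34.3%), against 19.8% of all genes, and CCAAT for 12 members (34.3%), against 41.1% of all genes. TGACNNNGC was found for Psmb5, Psmb6, Psmc6, Psmd9, Psmd12 and Psme4, whose responses are given below. A match of letters is not a measured binding site.

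NDA and BF raised many proteasome genes and NED raised few. The greatest changes under NDA were those of the chaperones Psmd5 and Psmg3 and the ATPase Psmc4, and under BF those of the deubiquitinase Psmd14, the catalytic subunit Psmb5 and Psmd5. On the deposited scale NDA raised 29 of the 42 members and lowered 0, against 31.5% of all tested genes higher and 8.41% lower (limma, Benjamini-Hochberg adjusted p under 0.05 over all tested genes). BF raised 24 and lowered 0, where 24.8% of all tested genes were higher and 7.58% lower. NED raised 9 and lowered 0, with 24.7% of all tested genes higher and 4.37% lower. PCNB raised 13 and lowered 0, with 14.6% higher and 3.87% lower over all tested genes. At an unadjusted p under 0.05, 35 members were higher for NDA, 32 for BF, 14 for NED and 28 for PCNB, and 1 was lower, for NED. Over all tested genes, 38.6% were higher at that threshold for NDA, 31.6% for BF, 34.6% for NED and 29.2% for PCNB. Tested non-members of the same signal levels are a closer comparison, because bright genes were called more often. Their share called higher was 41.9% for NDA, 33.7% for BF, 35.9% for NED and 18.5% for PCNB, and the members' share was 69.0% for NDA, 57.1% for BF, 21.4% for NED and 31.0% for PCNB.

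The median log2 change of the members was 0.32 for NDA, 0.32 for BF, 0.12 for NED and 0.25 for PCNB. Non-members of the same levels had medians of 0.25 for NDA, 0.20 for BF, 0.23 for NED and 0.20 for PCNB. After level centring, the median of the members was 0.06 for NDA, 0.16 for BF, -0.09 for NED and 0.05 for PCNB, so that the sign of the NED median depended on the scale. Level-centred calls were 8 higher and 1 lower for NDA, against 11.5% higher and 11.6% lower over all tested genes. They were 17 higher and 0 lower for BF, where 13% of all tested genes were higher and 11% lower. For NED they were 1 higher and 6 lower, with 6.55% higher and 6.78% lower over all tested genes. PCNB had 0 level-centred calls of the members by limma, against 2.87% of all tested genes higher and 2.81% lower. On the deposited scale 28 members were higher under PCNB at an unadjusted p under 0.05, as were 29.2% of all tested genes. As shares of the 42 members, the higher calls under NDA and BF and the lower calls under NED exceeded the shares over all tested genes. The higher calls after centring were 5 for NDA without NDA animal 2, and for BF they were 11 without corn oil animal 24, 9 without corn oil animal 25 and 7 without BF animal 6. The lower calls for NED were 3 without NED animal 12 and 4 without NED animal 15 or feed control animal 27.

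The median member of each array, minus the median of other genes at the same levels, was 0.11, 0.09 and 0.08 for NDA, -0.08, -0.14 and -0.11 for NED, 0.04, 0.09 and 0.12 for PCNB, and 0.04, -0.02 and 0.04 for feed control. It was 0.26, 0.13 and 0.07 for BF animals 6, 8 and 10, against -0.03, 0.04 and -0.09 for corn oil control. All 3 NED arrays thus lay below the 3 feed control arrays and below the arrays of the other feed chemicals, and all 3 BF arrays lay above the corn oil arrays. The highest BF array, animal 6, is among the 5 arrays with a high 18S signal.

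**Figure D1:**
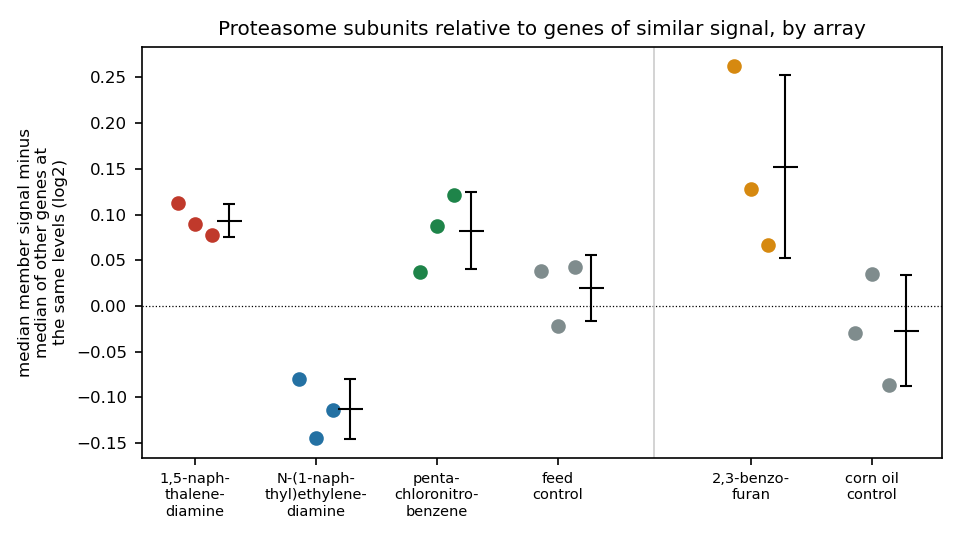
Median log2 signal of the 42 proteasome genes minus the median of other genes at the same signal levels (vertical axis), for each array by group (horizontal axis), with each point an array and the bar beside it the group mean ± SD (n = 3). The NED arrays lie between -0.14 and -0.08, below the 3 feed control arrays, and the BF arrays lie between 0.07 and 0.26.

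The corn oil and feed controls did not differ detectably in these genes: limma called 0 of the 42 members in either direction, against 0.123% of all tested genes higher and 0% lower. At an unadjusted p under 0.05, 3 members were higher and 1 lower, against 7.38% of all tested genes higher and 2.09% lower. The median log2 change of the 42 members was 0.02, with a range from -0.22 for Psme4 to 0.36 for Psme1. Feed control animal 29 had the lowest signal of its group for most members. Its median over all tested genes was also the lowest, at 6.34, against 6.46 and 6.51 on the other feed control arrays. Relative to other genes at the same levels its median member was not low, at 0.04. Without that array NDA raised 17 members and PCNB 3, and NED raised 2 and lowered 2. Counts also moved without NDA animal 4 (18 for NDA), without NED animal 12 (2 for NED), and, for PCNB, without animal 16 (2), animal 18 (3), animal 20 (5) or feed control animal 28 (21). Shares of all tested genes in fits that leave out arrays are not given here. Of the calls on the deposited scale, 17 of 29 for NDA, 16 of 24 for BF, 1 of 9 for NED and 2 of 13 for PCNB held whichever single array of the groups compared was left out. With all 5 arrays of high 18S signal left out, NDA raised 15 members, BF 8, NED 0 and PCNB 10. That leaves 2 NDA arrays, 1 BF array and 1 NED array, and a lone array is assumed to vary like the other groups, so lost calls there do not show a smaller change. The medians then were 0.29 for NDA, 0.34 for BF, 0.10 for NED and 0.25 for PCNB.

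In the alpha rings of the core, which form the gate, NDA raised 3 of 7 genes, BF 4, NED 1 and PCNB 1. Of non-members at the levels of these genes 41.3% were higher for NDA, 32.3% for BF, 36.1% for NED and 18.8% for PCNB, so the 42.9% for NDA was near that background. Calls under NDA depended on the probe set. Another one of Psma7 (mean 9.65) passed under NDA (0.41), unlike the one used (0.18). Another bright one of Psma6 (mean 10.42) did not pass under NDA (0.20). Log2 changes for NDA ran from -0.0037 for Psma4 to 0.40 for Psma6, and for BF from 0.14 for Psma4 to 0.41 for Psma2. Psma6, a ring subunit, had log2 signals of 11.14, 11.36 and 11.04 in NDA livers, 11.32, 11.00 and 10.99 in NED livers, and 11.02, 11.08 and 11.03 in PCNB livers, against 10.83, 10.90 and 10.61 in feed control livers. No exposed array overlapped the controls, and the change passed the test for NDA (0.40 ± 0.10 SE, adjusted p = 0.00621) and NED (0.32 ± 0.10, adjusted p = 0.0273). For Psma4, signals were 10.25, 10.31 and 10.26 in NDA livers and 10.19, 10.19 and 10.22 in NED livers, against 10.40, 10.33 and 10.10 in feed control livers. Relative to genes of its level Psma4 was lower under NDA (-0.22) and NED (-0.28), and this is the only member called lower after centring under NDA. Psma1 was likewise lower under NED after centring (-0.42), with 9.66, 9.67 and 9.48 in NED livers, against 10.03, 9.80 and 9.58 in feed control livers. On the deposited scale neither gene passed the test under NED. Psma2 rose under BF (0.41 ± 0.10, adjusted p = 0.00710).

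In the beta rings, which hold the catalytic sites, NDA raised 5 of 7 genes, BF 4, NED 1 and PCNB 1, where non-members at their levels were higher in 40.2% for NDA, 31.3% for BF, 35.4% for NED and 17.6% for PCNB. The catalytic subunits differed from each other. Psmb5, which carries the chymotrypsin-like site, stood at 10.42, 10.61 and 10.50 in NDA livers, 10.20, 10.19 and 10.19 in NED livers and 10.34, 10.36 and 10.43 in PCNB livers, against 10.13, 10.13 and 9.74 in feed control livers. It stood at 10.94, 10.82 and 10.73 in BF livers, against 9.92, 10.05 and 10.08 in corn oil livers. Every exposed array was above its controls, by most in BF livers. The log2 change was 0.81 ± 0.10 for BF (1.75-fold, adjusted p = 1.62e-05), 0.51 ± 0.10 for NDA (1.42-fold, adjusted p = 0.000937), 0.38 ± 0.10 for PCNB (adjusted p = 0.0178) and 0.19 ± 0.10 for NED (adjusted p = 0.138). After level centring it was 0.66 for BF, 0.29 for NDA and 0.19 for PCNB, and -0.0024 for NED, where the sign flipped.

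Psmb6, which carries the caspase-like site, stood at 10.37, 10.49 and 10.41 in NDA livers, 10.48, 10.34 and 10.37 in NED livers and 10.40, 10.33 and 10.41 in PCNB livers, against 10.19, 10.34 and 9.92 in feed control livers. It stood at 10.49, 10.35 and 10.32 in BF livers, against 10.08, 10.25 and 10.24 in corn oil livers. Its log2 changes ran from 0.20 for BF to 0.27 for NDA, and among the 4 chemicals NDA alone passed the test (adjusted p = 0.0313). After level centring the changes were 0.04 to 0.05. Psmb7, which carries the trypsin-like site, stood at 11.26, 11.26 and 11.22 in NDA livers, 10.94, 11.02 and 10.96 in NED livers and 11.21, 11.26 and 11.31 in PCNB livers, against 11.08, 11.13 and 10.71 in feed control livers. It rose under NDA (0.27 ± 0.10, adjusted p = 0.0372). Its change was 0.29 for PCNB (adjusted p = 0.0510), 0.23 for BF (adjusted p = 0.0855) and -0.00026 for NED. Among the non-catalytic subunits, Psmb3 rose under NDA, BF and NED (0.30, 0.37 and 0.42), Psmb1 under NDA and BF (0.24 and 0.32) and Psmb4 under BF (0.34). Psmb2 passed the test for no chemical on the deposited scale, and after centring it was lower under NED (-0.35).

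**Figure D2:**
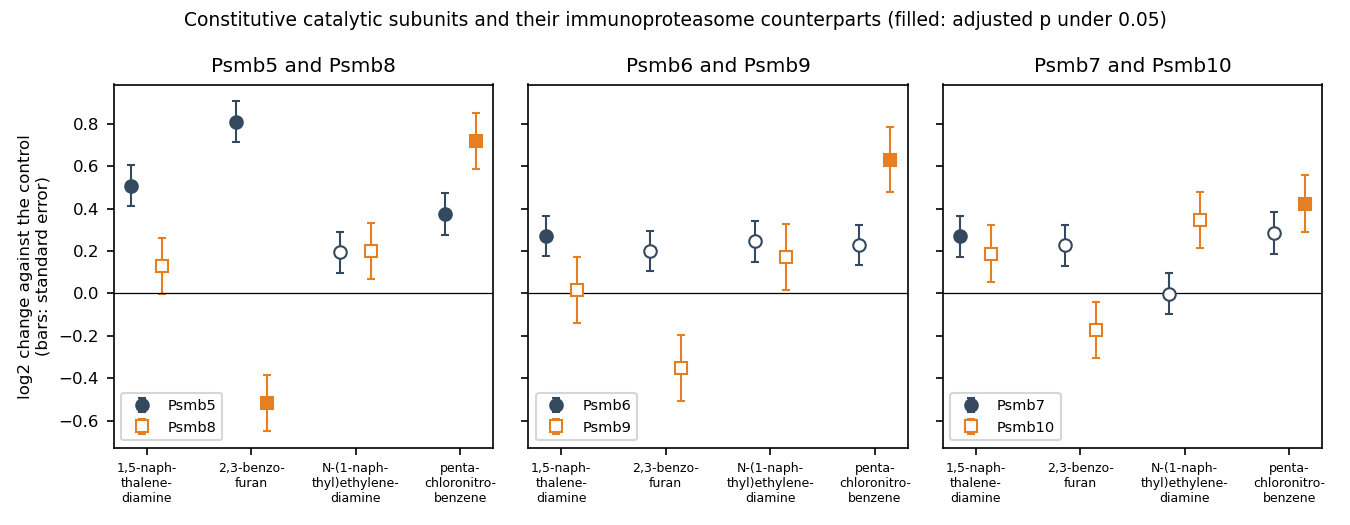
Log2 change against its control (vertical axis, bars show the standard error) of each constitutive catalytic subunit and of its immunoproteasome counterpart, for each chemical (horizontal axis). Filled points passed the test: Psmb5 was at 0.81 under BF while Psmb8 was at -0.52, and Psmb8 was at 0.72 under PCNB.

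The immunoproteasome genes, which replace the catalytic subunits in cells exposed to interferon and are plentiful in immune cells, had other changes. Counts here stand beside shares of all tested genes. Higher were 31.5% for NDA, 24.8% for BF, 24.7% for NED and 14.6% for PCNB. Lower were 8.41% for NDA, 7.58% for BF, 4.37% for NED and 3.87% for PCNB. After level centring 11.6% were lower for NDA and 11% for BF, and 2.87% were higher for PCNB. PCNB raised 3 of 3: Psmb8 by 0.72 (adjusted p = 0.00297), Psmb9 by 0.63 (adjusted p = 0.0138) and Psmb10 by 0.42 (adjusted p = 0.0364). BF lowered Psmb8, which stood at 8.11, 8.06 and 8.10 in BF livers, against 8.42, 8.80 and 8.60 in corn oil livers (-0.52, adjusted p = 0.00668). NDA and NED changed none of the 3 by this test. After level centring 1 of the 3 was higher under PCNB and 3 were lower under BF. Markers of Kupffer cells and macrophages, a list of 10 genes, moved too: their median log2 change was -0.31 for NDA, -0.46 for BF, 0.11 for NED and 0.28 for PCNB, with 1 gene lower under NDA, 3 lower under BF and 1 higher under PCNB. After level centring 6 were lower under NDA and 7 under BF. The list's array means were 6.95 to 7.52 in NDA livers, 7.38 to 7.76 in NED livers, 7.50 to 7.96 in PCNB livers and 7.14 to 7.71 in feed control livers, and 7.12 to 7.50 in BF livers, against 7.56 to 7.91 in corn oil livers. The group mean of its dimmest gene was 4.29 to 4.98, and none lay under the lowest array median. The part of these cells in the changes of immunoproteasome or constitutive genes was not tested. The 6 hepatocyte markers, such as Alb, had array means of 13.44 to 13.64 in all groups, with 1 gene higher under NED and 1 lower under BF, and 2 lower after level centring under NDA and under BF. Of 8 endothelial markers, 3 were lower under BF, 1 was lower and 1 higher under NDA and 2 were higher under NED, and after level centring 4 were lower under NDA and 4 under BF. The part of endothelial cells in the changes of the proteasome genes was not tested.

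Of the 19S ATPases, which unfold substrates, NDA raised 2 of 6, BF 2, NED 0 and PCNB 1. These shares, 33.3% for NDA and BF and 16.7% for PCNB, were not above those of non-members at the same levels (41% for NDA, 34% for BF, 35.8% for NED and 17.6% for PCNB). By the probe sets used, Psmc4 had the greatest change of the ring under each chemical. It stood at 9.59, 9.86 and 9.60 in NDA livers, 9.47, 9.08 and 9.23 in NED livers and 9.46, 9.42 and 9.42 in PCNB livers, against 9.12, 9.17 and 8.79 in feed control livers. The NDA and PCNB arrays were all above the controls and the NED arrays overlapped them. Its log2 change was 0.66 ± 0.14 for NDA (1.58-fold, adjusted p = 0.00212) and 0.65 ± 0.14 for BF (1.57-fold, adjusted p = 0.00259), with 0.41 for PCNB (adjusted p = 0.0540) and 0.24 for NED (adjusted p = 0.217). The only other ATPase genes to pass were Psmc5 under NDA (0.36) and PCNB (0.33) and Psmc1 under BF (0.31). The probe sets used for Psmc2, Psmc3 and Psmc6 passed for no chemical on the deposited scale. Other probe sets of the same genes did: one of Psmc2 rose under NDA (0.24), BF (0.29) and PCNB (0.30), and one of Psmc6 (mean 8.03) rose under NDA (0.48) and BF (0.33). Another probe set of Psmc4 (mean 9.02) rose less under NDA (0.34) than the one used (0.66). The probe set used for Psmc6 had changes of 0.06 under NDA, 0.20 under BF, -0.12 under NED and 0.21 under PCNB. After centring, Psmc2 (-0.29) and Psmc6 (-0.33) were lower under NED.

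Of the 11 non-ATPase subunits of the cap, NDA raised 10, BF 9, NED 2 and PCNB 5, where non-members at their levels were higher in 41.4% for NDA, 33.9% for BF, 36.3% for NED and 17.9% for PCNB. After level centring BF raised 9 of the 11, NDA 3 and PCNB 0, and NED lowered 1. Psmd14, the deubiquitinase that removes ubiquitin chains from substrates, stood at 9.97, 10.12 and 10.00 in NDA livers, 9.64, 9.49 and 9.38 in NED livers and 9.79, 9.69 and 9.79 in PCNB livers, against 9.55, 9.49 and 9.39 in feed control livers. It stood at 10.47, 10.38 and 10.08 in BF livers, against 9.54, 9.51 and 9.34 in corn oil livers. The NED arrays overlapped the feed controls, and the arrays of the other 3 chemicals did not overlap their controls. The log2 change was 0.85 ± 0.10 for BF (1.80-fold, adjusted p = 1.68e-05), 0.56 ± 0.10 for NDA (1.47-fold, adjusted p = 0.000694), 0.28 ± 0.10 for PCNB (adjusted p = 0.0598) and 0.02 ± 0.10 for NED (adjusted p = 0.874).

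Psmd11, a scaffold subunit of the lid, stood at 11.85, 11.91 and 11.77 in NDA livers, 11.35, 11.26 and 11.38 in NED livers and 11.74, 11.67 and 11.53 in PCNB livers, against 11.49, 11.42 and 11.11 in feed control livers. It stood at 11.99, 11.80 and 11.72 in BF livers, against 11.28, 11.31 and 11.27 in corn oil livers. It rose under NDA (0.50, adjusted p = 0.000756), BF (0.55, adjusted p = 0.000412) and PCNB (0.31, adjusted p = 0.0329), and its change under NED was -0.01. Psmd1, the large scaffold of the base, showed the same order, with rises of 0.45 under NDA, 0.45 under BF and 0.28 under PCNB, and 0.08 under NED. Psmd7, the partner of Psmd14 in the lid, differed from the others under NED. It stood at 8.92, 8.64 and 8.75 in NDA livers, 8.15, 8.10 and 8.11 in NED livers and 8.84, 8.67 and 8.78 in PCNB livers, against 8.68, 8.46 and 8.23 in feed control livers. All 3 NED arrays were below the controls, with a log2 change of -0.33 ± 0.13 that did not pass on the deposited scale (adjusted p = 0.0621) and of -0.56 after level centring, which did. Psmd6 rose under all 4 chemicals, by 0.38 for NDA, 0.51 for BF, 0.25 for NED and 0.31 for PCNB, and Psmd13 under NDA, BF and NED (0.47, 0.58 and 0.38). Psmd12, a lid subunit, rose under NDA (0.41), BF (0.43) and PCNB (0.37), with 0.22 under NED.

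**Figure D3:**
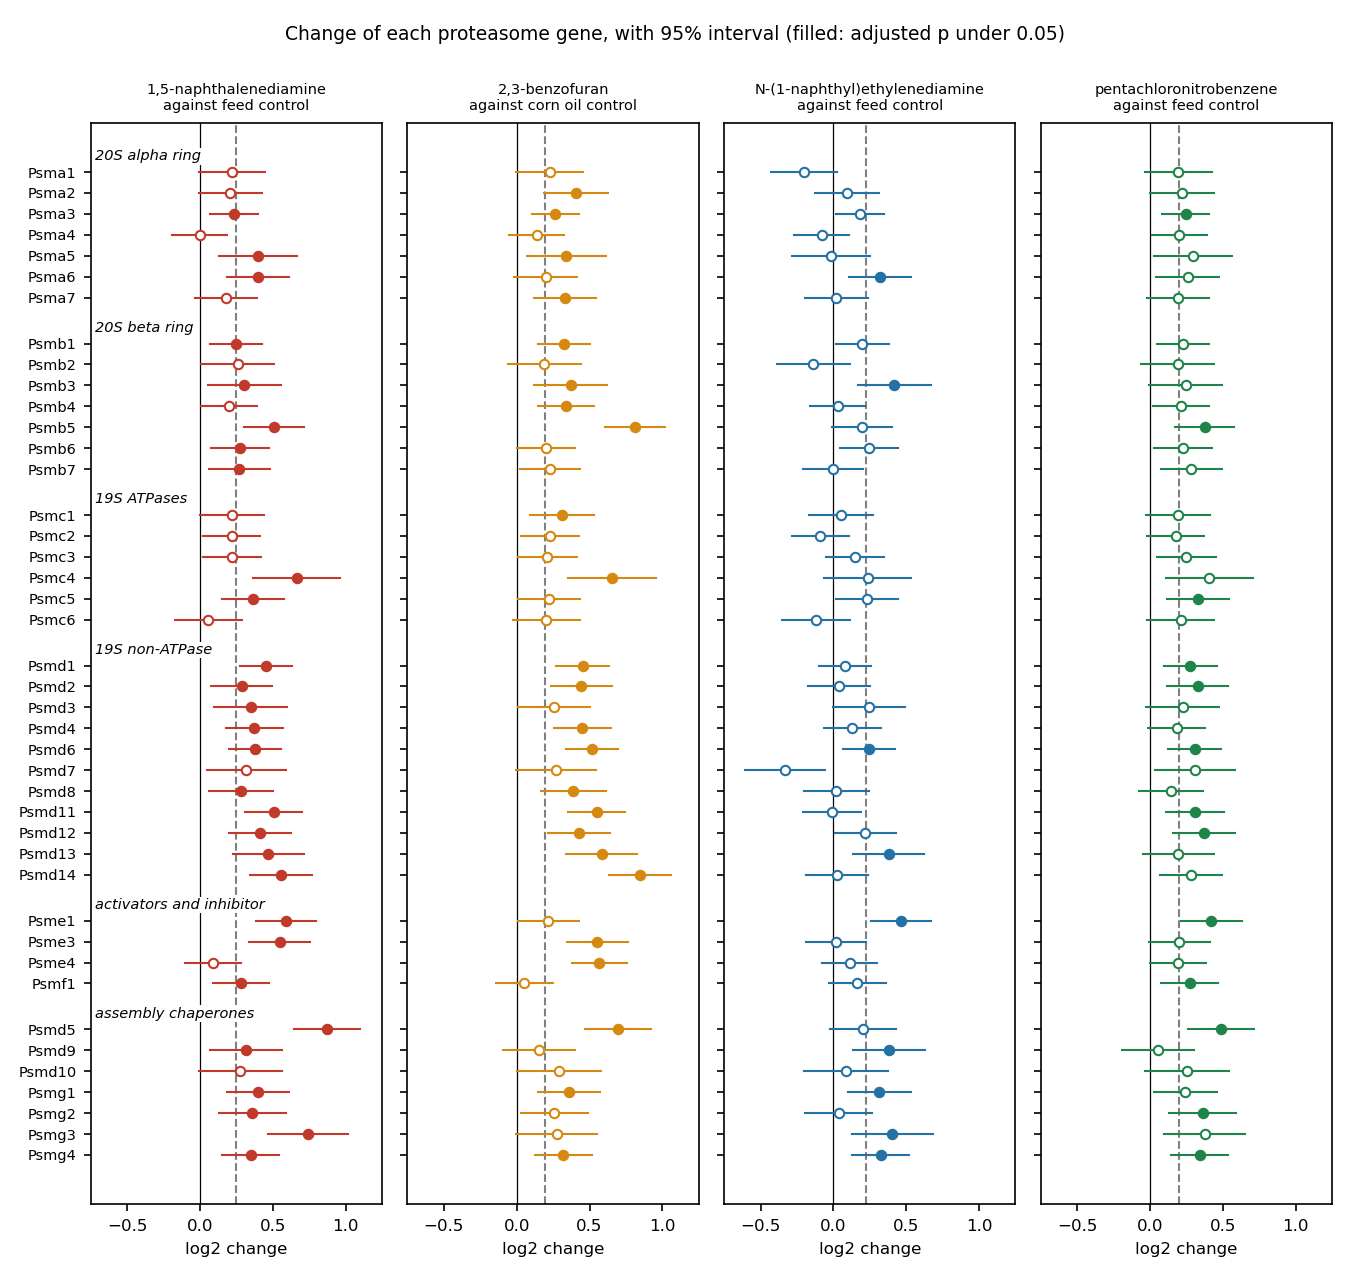
Log2 change against the control (horizontal axis, bars show the 95% interval) of each of the 42 proteasome genes (vertical axis, grouped by role), with a panel for each chemical, filled points for adjusted p under 0.05 and a dashed line at the median of other genes at the same levels. NDA has 29 filled points, BF 24, NED 9 and PCNB 13, and the points furthest right are those of Psmd5, Psmg3 and Psmc4 under NDA and of Psmd14, Psmb5 and Psmd5 under BF.

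Among the assembly chaperones, which put the rings together and are not part of the finished particle, NDA raised 6 of 7 genes, BF 3, NED 4 and PCNB 3, where non-members at their levels were higher in 44.7% for NDA, 36.3% for BF, 36% for NED and 20.2% for PCNB. Psmd5, which binds an ATPase during assembly of the base, stood at 8.63, 8.52 and 8.76 in NDA livers, 7.97, 7.85 and 8.09 in NED livers and 8.30, 8.29 and 8.17 in PCNB livers, against 7.96, 7.79 and 7.53 in feed control livers. It stood at 8.77, 8.68 and 8.62 in BF livers, against 7.96, 8.03 and 7.99 in corn oil livers. Only the NED arrays overlapped their controls. The log2 change was 0.87 ± 0.11 for NDA (1.83-fold, adjusted p = 2.88e-05), 0.70 ± 0.11 for BF (1.62-fold, adjusted p = 0.000179), 0.49 ± 0.11 for PCNB (1.40-fold, adjusted p = 0.00841) and 0.20 ± 0.11 for NED (adjusted p = 0.157). Leaving out any 1 array of the groups compared kept the calls of Psmd5 under NDA, BF and PCNB, with a highest adjusted p of 0.0407. The chaperones that pair up alpha subunits differed from each other. Psmg1 rose under NDA, BF and NED. Psmg2 rose under NDA and PCNB, and its change under NED was 0.04. Psmg3 had its greatest change under NDA, with 8.32, 8.26 and 8.07 in NDA livers, against 7.63, 7.71 and 7.09 in feed control livers (0.74 ± 0.13, 1.67-fold, adjusted p = 0.000561). It also rose under NED (0.41, adjusted p = 0.0295), and its change was 0.38 for PCNB and 0.27 for BF, which did not pass. Psmg4 rose under all 4 chemicals, within a narrow range (0.32 for BF to 0.35 for NDA), and after centring its changes were 0.05 to 0.11. Psmd9 rose under NDA (0.31) and NED (0.38), with 0.15 under BF and 0.06 under PCNB. Psmd10, also known as gankyrin, passed for none.

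The activators and the inhibitor differed from gene to gene. Psme3, which forms the nuclear PA28 gamma activator, stood at 7.79, 7.79 and 7.93 in NDA livers, 7.32, 7.34 and 7.27 in NED livers and 7.37, 7.61 and 7.49 in PCNB livers, against 7.41, 7.17 and 7.29 in feed control livers. It stood at 7.99, 7.90 and 7.73 in BF livers, against 7.39, 7.31 and 7.26 in corn oil livers. It rose under NDA (0.55, adjusted p = 0.000654) and BF (0.55, adjusted p = 0.000602), with 0.20 for PCNB (adjusted p = 0.147) and 0.02 for NED. Psme4, the PA200 activator, rose under BF, with 10.34, 10.25 and 10.30 in BF livers, against 9.76, 9.72 and 9.70 in corn oil livers (0.57 ± 0.09, 1.48-fold, adjusted p = 0.000238). Its change was 0.09 under NDA, 0.11 under NED and 0.19 under PCNB, none of which passed. The test of BF minus NDA for Psme4 did not pass on the deposited scale (0.48, adjusted p = 0.0885) and passed after level centring (0.55, adjusted p = 0.0138). Psme1, a subunit of the interferon-inducible PA28 activator, had another pattern, rising under NDA (0.59, adjusted p = 0.000334), NED (0.47, adjusted p = 0.00357) and PCNB (0.42, adjusted p = 0.0113), with 0.22 under BF (adjusted p = 0.0993). It stood at 10.19, 10.32 and 10.29 in NDA livers, 10.31, 10.02 and 10.09 in NED livers and 10.02, 10.02 and 10.25 in PCNB livers, against 9.80, 9.66 and 9.56 in feed control livers. The group mean of Psme1 was 10.26 in BF livers, close to 10.27 in NDA livers. Its mean was 10.04 in corn oil livers, against 9.675 in feed control livers. That control difference (0.36) was the greatest of any member and was not called, so the pattern of Psme1 also depends on the controls. Psme1 was the only member called higher under NED after level centring (0.27). Psmf1, the inhibitor, rose under NDA (0.28) and PCNB (0.27).

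**Figure D4:**
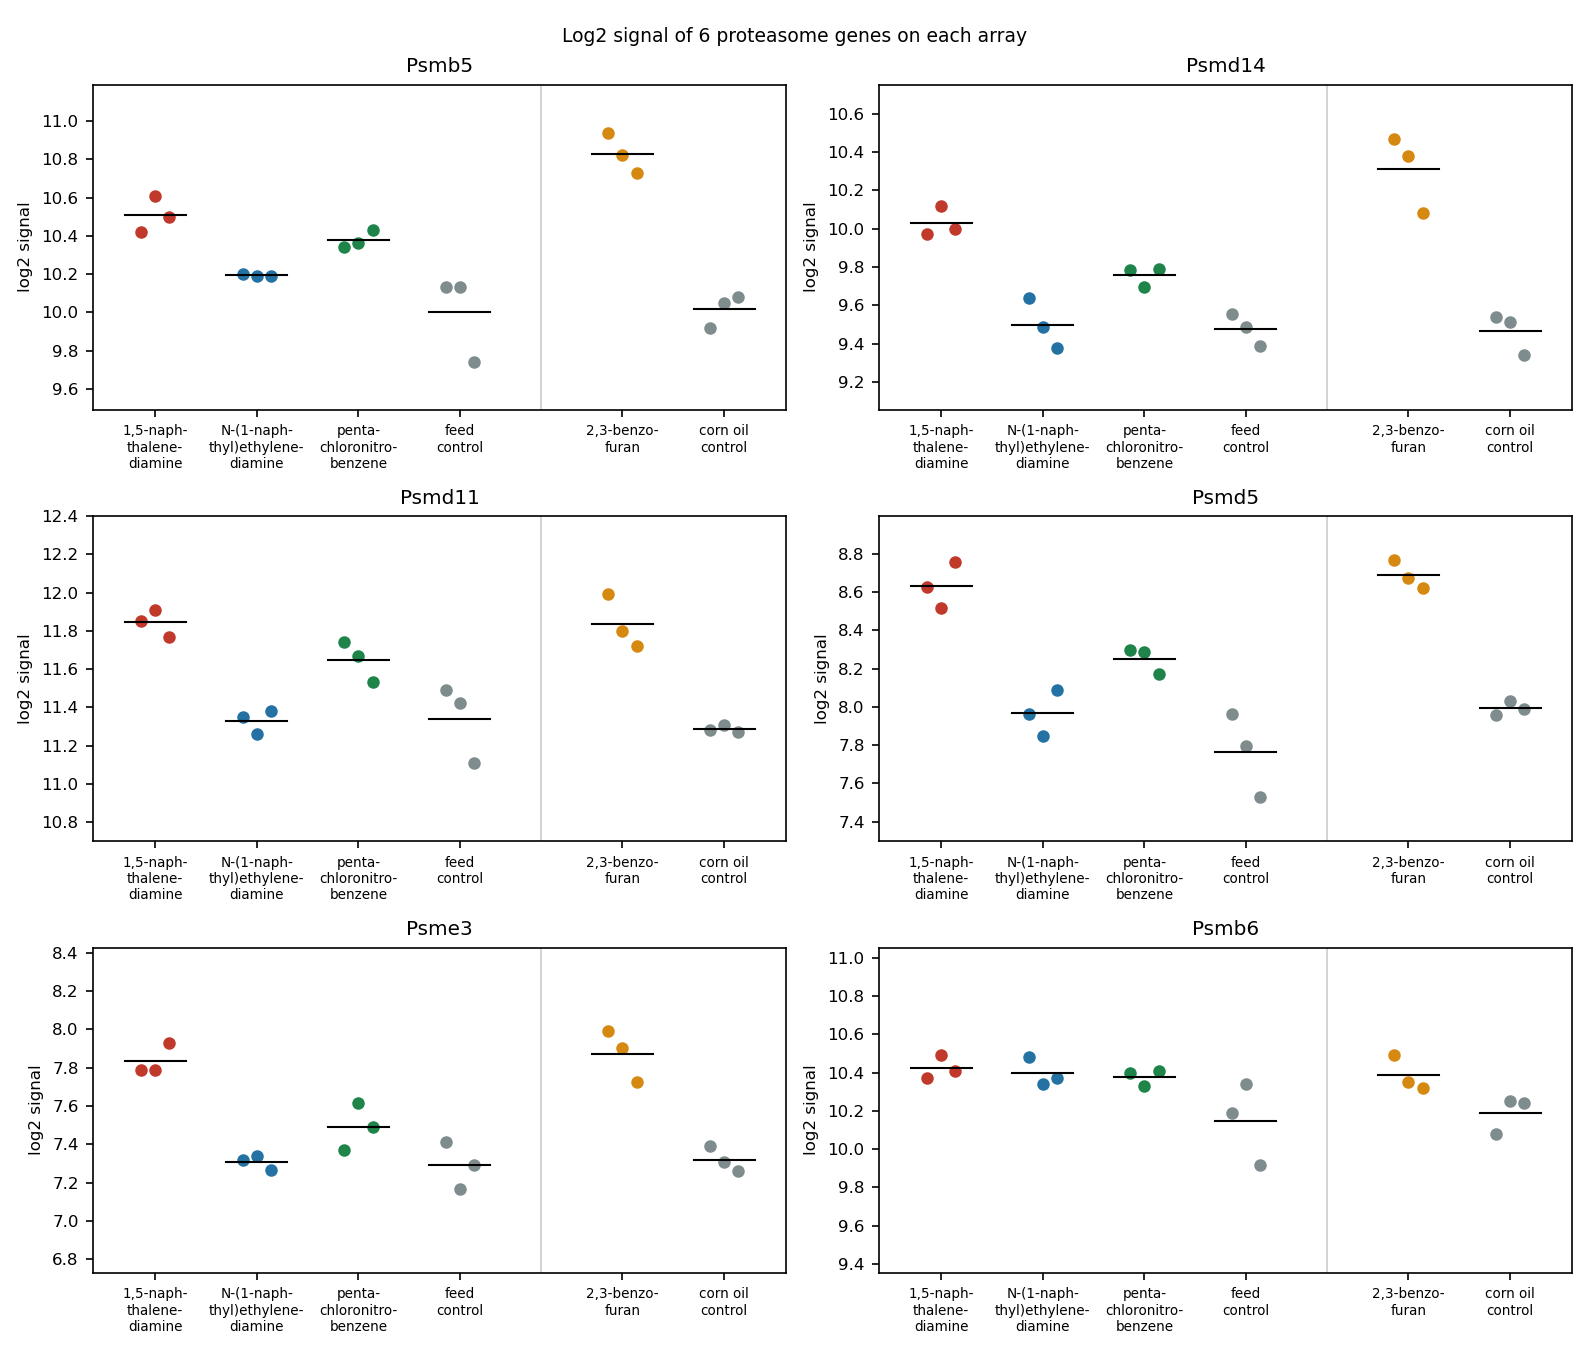
Log2 signal (vertical axis) of 6 proteasome genes on each array, by group (horizontal axis), with each point an array and the bar the group mean. Psmb5, Psmd14 and Psmd5 are higher on all NDA and BF arrays than on their control arrays, and the NED arrays of Psmd14 overlap the feed controls.

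Responses were then compared between chemicals by the difference of effects, each against its own control. NDA and NED are both naphthalene derivatives and were given at 2000 ppm in feed: NDA carries an amino group on each ring, and NED carries an ethylenediamine chain on a ring. The feed control cancels in their difference. In this difference 6.34% of non-members at the signal levels of the members were higher and 4.13% lower. NDA was above NED for 7 of the 42 members and below it for 0, against 3.51% of all tested genes higher and 1.96% lower. These were Psmd5 (0.67, 95% interval 0.44 to 0.89, adjusted p = 0.00114), Psmd7 (0.65, adjusted p = 0.00625), Psmd14 (0.53, 0.32 to 0.75, adjusted p = 0.00450), Psme3 (0.53, adjusted p = 0.00401), Psmd11 (0.52, adjusted p = 0.00323), Psma1 (0.42, adjusted p = 0.0316) and Psmd1 (0.37, adjusted p = 0.0169). After level centring 12 members passed, against 4.34% of all tested genes higher. Of the 7, 5 held whichever array was left out, and Psma1 and Psmd1 did not. The difference was not found for other members, with 0.03 for Psmb6 (95% interval -0.18 to 0.23, adjusted p = 0.915) and -0.12 for Psmb3 (-0.36 to 0.13, adjusted p = 0.626). The arrays of high 18S signal include NED animals 12 and 14 and NDA animal 4, and leaving out all 5 arrays of high 18S signal sets 2 NDA arrays against 1 NED array. By limma 0 of the 7 then passed on the deposited scale, with differences of 0.44 for Psmd11 to 0.73 for Psmd7, and 3 members passed after level centring. RNA integrity also differs between these groups, as given above. With it as a covariate 1 member passed, and 5 passed with the beta-actin signal as a covariate. The shares of all tested genes in these fits are not given here.

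NED and PCNB, both classed as negative, differed in Psmd7, which was lower under NED (-0.64, adjusted p = 0.0113), against 1.06% of all tested genes higher and 1.63% lower. Non-members at the same levels were higher in 1.42% and lower in 3.09%, so the 1 member called is within that background. After level centring 7 members were lower under NED than under PCNB, where 2.78% of all tested genes were. The Psmd7 call was lost without PCNB animal 16, and with the mean of the probe sets of a gene. It was also lost without the arrays of high 18S signal, where 1 NED array is left and the difference was -0.65 (adjusted p = 0.123). The count of 7 was 2 to 4 without any 1 of the 6 arrays. NDA and PCNB differed in 0 members by limma on the deposited scale, against 2.2% of all tested genes higher and 1.82% lower. At an unadjusted p under 0.05 they differed in 7 members, against 10.1% of all tested genes higher and 5.5% lower. BF and NDA differed in 0 members, against 0.362% higher and 0.6% lower over all tested genes. At an unadjusted p under 0.05 they differed in 4 members, against 3.9% of all tested genes higher and 8.14% lower. These counts do not show that the chemicals act alike. For BF minus NED, 4.62% of non-members at the same levels were higher and 6.33% lower. BF was above NED for 5 members, against 2.52% of all tested genes higher and 3.07% lower: Psmd14 (0.82, adjusted p = 0.00277), Psmb5 (0.62, adjusted p = 0.0126), Psmd11 (0.56, adjusted p = 0.0180), Psme3 (0.53, adjusted p = 0.0314) and Psme4 (0.46, adjusted p = 0.0436). The count moved to 15 without feed control animal 29 and to 2 without BF animal 6, and to 3 without NED animal 12 or 15, corn oil animal 24 or 25, feed control animal 27 or BF animal 8. After level centring it was 14, against 4.82% of all tested genes higher, and 4 to 22 on leaving out single arrays (4 without BF animal 6, 22 without BF animal 10). BF was above PCNB for Psmd14 (0.56, adjusted p = 0.0401), against 1.27% of all tested genes higher and 1.63% lower. Non-members at the same levels were higher in 2.05%, against 2.38% of the members, so the Psmd14 call is near that background. That call was lost without any of the PCNB animals, without corn oil animal 24 or 25, without feed control animal 27 or 28 and without BF animal 6 or 8. BF was given by gavage in oil at another dose than the feed chemicals, so differences that involve it also hold route and vehicle.

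NDA and BF, which have separate controls, raised 19 members in common, 65.5% of the 29 for NDA and 79.2% of the 24 for BF. Over all 42 members, BF raised 57.1% and NDA 69.0%, shares not far from these. After level centring they raised 6 in common: Psmb5, Psmc4, Psmd1, Psmd5, Psmd11 and Psmd14. These are 75% of the 8 for NDA and 35.3% of the 17 for BF, where BF raised 40.5% of all members after centring and NDA 19.05%.

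The mean effect of NDA and BF, the positive liver carcinogens, minus that of NED and PCNB, the negative chemicals, passed the test for 6 members, each higher, against 3.8% of all tested genes higher and 3.39% lower. Non-members at the signal levels of the members were higher in 6.4% and lower in 7.1%. Psmd14 had a difference of 0.55 ± 0.09 (adjusted p = 0.000751), Psme3 of 0.44 ± 0.09 (adjusted p = 0.00368), Psmd5 of 0.44 ± 0.09 (adjusted p = 0.00677), Psmd11 of 0.38 ± 0.08 (adjusted p = 0.00716), Psmb5 of 0.37 ± 0.08 (adjusted p = 0.00929) and Psmd1 of 0.28 ± 0.07 (adjusted p = 0.0304). All but Psmd1 held whichever of the 18 arrays was left out, and Psmd1 was lost on leaving out 12 of the 18, with an adjusted p of up to 0.0723. After level centring the same 6 passed together with Psmd4 and Psmd8, against 5.33% of all tested genes higher, and the count was 15 without BF animal 10. Psmb6 (-0.0016, 95% interval -0.18 to 0.17) and Psme1 (-0.04, -0.22 to 0.14) did not pass. The count was 15 without feed control animal 29. In fits with covariates, whose shares of all tested genes are not given here, the count was 0 with RNA integrity and 5 with the beta-actin signal. Without the arrays of high 18S signal, which leaves 1 BF array and 1 NED array, it was 1, with differences of the 6 from 0.32 for Psmd11 to 0.62 for Psmd14, and it was 5 after level centring of the remaining arrays. In the same contrast 5 of 10 Kupffer and macrophage markers were lower, with a median of -0.52, and 2 of 3 immunoproteasome genes were lower, or 3 after level centring. Lymphocyte markers were lower in 2 of 6. That list was dim, with array means of 5.27 to 5.84, and 1 gene under the lowest array median in NDA, NED, feed control and BF livers. The part of those cells in the class difference was not tested. Each class holds 2 chemicals, so class and chemical cannot be told apart.

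**Figure D5:**
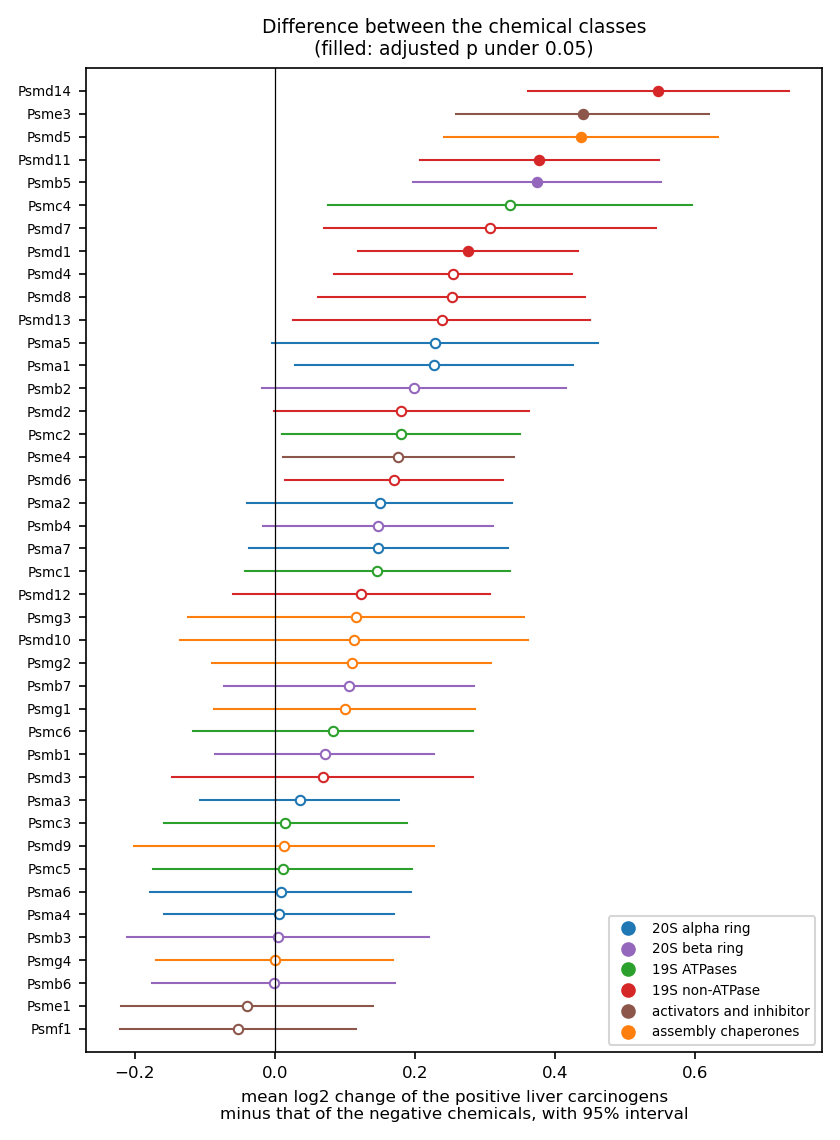
Mean log2 change of NDA and BF minus that of NED and PCNB (horizontal axis, bars show the 95% interval) for each of the 42 proteasome genes (vertical axis, coloured by role), with filled points for adjusted p under 0.05. The 6 filled points run from 0.28 for Psmd1 to 0.55 for Psmd14, and 38 of the 42 differences are above 0.

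Other genes of the pathway were read from lists made for this purpose. Their counts stand beside 31.5% of all tested genes higher for NDA, 24.8% for BF, 24.7% for NED and 14.6% for PCNB. After level centring 11.5% were higher for NDA, 13% for BF and 2.87% for PCNB, and 11% were lower for BF and 6.78% for NED. For the difference between positive and negative chemicals 3.8% were higher and 3.39% lower. Shuttle factors, which carry ubiquitinated proteins to the proteasome, and the unfoldase p97 with its cofactors were raised by NDA in 7 of 10 tested genes, by BF in 8, by NED in 2 and by PCNB in 2, with medians of 0.44 for NDA, 0.39 for BF, 0.09 for NED and 0.24 for PCNB. After level centring 3 were higher under NDA and 5 under BF, 2 were lower under NED and 0 were called under PCNB. Vcp, which encodes p97, rose under NDA (0.48), BF (0.64), NED (0.25) and PCNB (0.34). The difference between positive and negative chemicals passed for Vcp (0.27), Rad23b (0.33), Ubqln1 (0.33) and Ubqln2 (0.39). Other proteins bound to the proteasome passed for 3 of 6 tested genes under NDA, 3 under BF, 0 under NED and 2 under PCNB. They were Ecpas, Usp14, a deubiquitinase of the cap, and Pomp, a chaperone of the core, with Usp14 at 0.50 for NDA, 0.39 for BF, -0.14 for NED and 0.42 for PCNB. After level centring 0 of the 6 passed under NDA or PCNB by limma, 1 was higher and 1 lower under BF and 1 was lower under NED. Of 6 ubiquitin and ubiquitin-activating enzyme genes 1 could be tested, Uba6, which rose under NDA (0.99), BF (0.61) and PCNB (0.65) and kept its call after level centring under NDA alone.

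Of the known regulators of proteasome genes, NDA raised 5 of 7 tested, BF 2, NED 2 and PCNB 2, which for BF and NED is near the share of all tested genes, and the difference between the chemical classes passed for 0 of 7. After level centring 1 was higher under NDA and 1 was lower under BF. Nfe2l1, which encodes NRF1, rose under NDA (0.49), BF (0.42) and NED (0.63), with 0.25 under PCNB. NRF1 is activated after translation, which these arrays do not measure. Defence genes regulated by NRF2 were raised by NDA in 9 of 11 tested, by BF in 10, by NED in 4 and by PCNB in 7. The class difference passed for 9, against 3.8% of all tested genes higher and 3.39% lower. After level centring 8 were higher under NDA, 10 under BF and 4 under PCNB, and 2 were lower under NED. Nqo1, a quinone reductase, stood at 7.55, 8.47 and 8.13 in NDA livers, 6.86, 6.60 and 6.74 in NED livers and 6.95, 7.13 and 7.24 in PCNB livers, against 6.43, 5.50 and 6.01 in feed control livers. It stood at 8.79, 8.95 and 8.85 in BF livers, against 5.87, 6.29 and 6.64 in corn oil livers. The log2 change was 2.07 for NDA, 2.60 for BF, 0.76 for NED and 1.13 for PCNB.

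Probe sets other than the one used bear on single genes. Of the 42 members, 21 had several probe sets that passed the filter. Of their 20 other probe sets with a mean log2 signal of 6 or more, 18 changed in the same direction as the one used under NDA, 19 under BF, 14 under NED and 19 under PCNB. Psmd5, Psmb5 and Psmd14 each rest on a single probe set. Psmd11 has 3 further bright ones, which rose under NDA by 0.60, 0.74 and 0.42 and under BF by 0.51, 0.51 and 0.55, and of which 1 also rose under NED (0.31), against -0.01 for the probe set used. A dim one (mean 5.04) changed the other way, at -0.50 under NDA and -0.40 under BF. For Psme4, the other 2 probe sets also rose under BF (0.44 and 0.65), while 1 of them rose under NDA (0.30) and the other was lower under NED (-0.36). A dimmer probe set of Psmd4 (mean 6.35) went against the one used, falling under NDA (-0.40) and PCNB (-0.47).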

How the data were processed

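Liver RNA of 18 mice was measured on Affymetrix whole-genome mouse arrays, 3 per group, with groups assigned from the sample labels. The authors deposited log2 signals for 45101 probe sets (range 2.21 to 14.66, array medians 4.25 to 4.35); how background was corrected and how probes were normalized and summarised is not stated in the sources used here. Of the probe sets, 34945 name 1 gene, 932 several and 9160 none in the platform annotation, and 64 are controls. Symbols of 34741 were updated through Entrez identifiers. A probe set was kept if above its array's median on at least 3 arrays (24338 kept, 20712 naming 1 gene), and the highest mean stood for each gene, giving 12169 genes. These were fitted with limma 3.58.1 in R 4.3.3 (a mean per group, 12 residual degrees of freedom, empirical Bayes with a trend), and a call needed an adjusted p (Benjamini-Hochberg, over all 12169 genes) under 0.05. Errors are the model's standard errors unless SD is written. Level centring subtracted, on each array, the median of the non-members in the same bin of mean log2 signal, 1 unit wide, and refitted. In the labels only the animal number and the RNA integrity number (7.4 to 8.8 within corn oil control) separate the replicates. The p-values thus measure the spread between these animals, with any differences in RNA quality. The fit was tested on simulated data.

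The members and lists were chosen with earlier results of these data known. Genes named with per-array values are the catalytic subunits, the members with the largest and the smallest change in each role class for each chemical, and up to 5 called members with the largest t in each difference between chemicals, and from these those that the results turn on were given in full. Alternatives covered normalization, centring, filters, probe set choice, variance model, array weights, RNA quality covariates, the arrays of high 18S signal, samples in the fit, controls, threshold and each array left out. The level-centred counts without the arrays of high 18S signal, with the beta-actin covariate and with single arrays left out were added after seeing the data. Signal over background limits dim probe sets, and no detection calls were used. Sequences are RefSeq's on GRCm38.p6. Figures used matplotlib 3.10.9 under Python 3.11.15.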

Additional observations from a re-analysis of the deposited data

Results flagged for a closer look

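Each of 6 members differed between the effects of the chemicals classed as positive liver carcinogens and those classed as negative, by a limma test of the difference itself with adjustment over all tested genes. In that test 3.8% of all tested genes were higher and 3.39% lower. Non-members at the signal levels of the members were higher in 6.4% and lower in 7.1%. On the log2 scale the difference was 0.55 for Psmd14, 0.44 for Psme3, 0.44 for Psmd5, 0.38 for Psmd11, 0.37 for Psmb5 and 0.28 for Psmd1. Psmd1 was lost on leaving out 12 of the 18 arrays in turn, and 0 members passed with RNA integrity as a covariate. The share of all tested genes in that fit is not given here. In each class the effects of both chemicals entered with equal weight, and with 2 chemicals per class the class and its chemicals cannot be told apart. No explanation was tested.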

How the results depend on the processing

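The medians over the members kept their sign under every alternative for NDA, BF and PCNB, and for NED except under the centrings and quantile normalization. Counts below are members called, of 42, where they moved by over 1.5 times, a minus between chemicals is a difference of effects, and values beside genes are log2 changes. All counts come from limma. With quantile normalization, counts were 9 for NDA, 0 for PCNB, 12 for NDA minus NED, 2 for NDA minus PCNB, 6 for NED minus PCNB, 2 for BF minus NDA, 13 for BF minus NED and 3 for BF minus PCNB, and medians 0.077 for NDA, 0.17 for BF, -0.057 for NED and 0.052 for PCNB. The sign turned for Psmb4 -0.016, Psmc6 -0.16 and Psme4 -0.12 under NDA, Psma4 -0.010, Psmd9 -0.063 and Psmf1 -0.17 under BF, Psme3 -0.19 and Psmg2 -0.16 under NED and Psma7 -0.011, Psmb2 -0.020, Psmc2 -0.015, Psmd8 -0.059 and Psmd9 -0.16 under PCNB in that fit. With centring each array on its tested genes, counts were 9 for NDA, 12 for BF, 0 for PCNB, 11 for NDA minus NED, 3 for NED minus PCNB, 1 for BF minus NDA, 9 for BF minus NED and 3 for BF minus PCNB, and medians 0.062 for NDA, 0.12 for BF, -0.10 for NED and 0.036 for PCNB. The sign turned for Psmb4 -0.055, Psmc6 -0.20 and Psme4 -0.16 under NDA, Psma4 -0.061, Psmb2 -0.0070, Psmd9 -0.047 and Psmf1 -0.15 under BF, Psmb5 -0.029, Psme3 -0.21 and Psmg2 -0.19 under NED and Psma7 -0.020, Psmb2 -0.022, Psmc2 -0.036, Psmd8 -0.070, Psmd9 -0.16 and Psme4 -0.019 under PCNB in that fit. With centring by signal level, counts were 9 for NDA, 0 for PCNB, 12 for NDA minus NED, 2 for NDA minus PCNB, 7 for NED minus PCNB, 1 for BF minus NDA, 14 for BF minus NED and 3 for BF minus PCNB, and medians 0.061 for NDA, 0.16 for BF, -0.086 for NED and 0.048 for PCNB. The sign turned for Psmb4 -0.023, Psmc6 -0.20 and Psme4 -0.13 under NDA, Psma4 -0.011, Psmd9 -0.072 and Psmf1 -0.20 under BF, Psmb5 -0.0024, Psme3 -0.23 and Psmg2 -0.21 under NED and Psma7 -0.021, Psmb2 -0.022, Psmc2 -0.011, Psmd8 -0.045 and Psmd9 -0.15 under PCNB in that fit. With array weights, counts were 17 for NDA, 4 for NED, 6 for PCNB, 11 for NDA minus NED, 3 for NDA minus PCNB, 7 for NED minus PCNB, 1 for BF minus NDA, 12 for BF minus NED, 3 for BF minus PCNB and 12 for positive minus negative, and the sign turned for Psmc6 -0.0037 under NDA. Counts with the 5 arrays of high 18S signal left out were 15 for NDA, 8 for BF, 0 for NED, 0 for NDA minus NED, 0 for NED minus PCNB, 1 for BF minus NED, 0 for BF minus PCNB and 1 for positive minus negative, and the sign turned for Psme3 -0.022 and Psmg2 -0.012 under NED. With only the groups compared in the fit, counts were 12 for NDA, 1 for NED, 0 for PCNB, 5 for NED minus PCNB, 3 for BF minus NED and 0 for BF minus PCNB. Counts with an adjusted p under 0.01 were 16 for NDA, 1 for NED, 1 for PCNB, 0 for NED minus PCNB, 1 for BF minus NED and 0 for BF minus PCNB. With both controls pooled, counts were 37 for BF, and the sign turned for Psmg2 -0.089 under NED. Level-centred counts with the arrays of high 18S signal left out were 4 for BF, 1 for NED, 3 for NDA minus NED, 2 for NED minus PCNB, 3 for BF minus NED and 5 for positive minus negative. With RNA integrity as a covariate, counts were 0 for NED, 1 for NDA minus NED, 0 for NED minus PCNB, 0 for BF minus NED, 0 for BF minus PCNB and 0 for positive minus negative, and the sign turned for Psmb7 0.013 under NED. Counts with the beta-actin signal as a covariate were 0 for NED, 0 for NED minus PCNB and 2 for BF minus NED, and level-centred counts 0 for NED, 1 for PCNB, 6 for NDA minus NED, 0 for NED minus PCNB and 4 for BF minus NED. The sign turned for Psma4 0.0041 under NDA and Psmb7 0.11 under NED in that fit. Counts with probe sets with a mean of 6 or more were 2 for NDA minus PCNB. With the mean of the probe sets of a gene, counts were 1 for NDA minus PCNB and 0 for NED minus PCNB, and the sign turned for Psmd9 -0.043 under BF, Psma1 0.052 under NED and Psmd9 -0.031 under PCNB. Counts with probe sets of shared sequence left out were 2 for BF minus NED and 0 for BF minus PCNB, and the sign turned for Psmc6 0.12 under NED. With no filter on dim probe sets, counts were 0 for BF minus PCNB. Counts with no variance trend were 0 for BF minus PCNB. Leaving out each array in turn gave counts of 17 to 33 for NDA, 2 to 11 for NED, 2 to 21 for PCNB, 0 to 1 for NED minus PCNB, 0 to 1 for BF minus NDA, 2 to 15 for BF minus NED, 0 to 3 for BF minus PCNB and 5 to 15 for positive minus negative, and level-centred counts of 5 to 8 for NDA, 7 to 18 for BF, 3 to 6 for NED, 0 to 1 for PCNB, 2 to 4 for NED minus PCNB, 4 to 22 for BF minus NED and 7 to 15 for positive minus negative. Changes of genes whose sign turned on leaving out an array ran as follows: Psma4 under NDA -0.091 to 0.059, Psmc6 under NDA -0.036 to 0.15, Psme4 under NDA -0.018 to 0.17, Psmb7 under NED -0.13 to 0.076, Psme3 under NED -0.042 to 0.080, Psmg2 under NED -0.014 to 0.065 and Psmd9 under PCNB -0.038 to 0.17. Without the arrays of high 18S signal BF and NED keep 1 array each, which is assumed to vary like the other groups. The causes of these changes were not tested, beyond the fewer arrays or genes that some alternatives leave. Apart from those after level centring, shares of all tested genes under the alternatives are not given here. Moved counts thus do not show a change particular to the members. No paired analysis was possible because the groups share no animal numbers. Signal over background limits what can be seen in dim probe sets.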
